A study of Mus musculus with 8 samples.

Results

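The genes of the complement system were followed in the lungs of mice with and without ovalbumin (OVA)-induced allergic airway inflammation. The members were 37 listed genes, namely components, receptors and regulators of complement, chosen by name and found through the RefSeq accession of each probe on the array. All 37 had a probe, among 45616 genes or unnamed transcripts in all. The probe of 32 members was well above background in both mice of at least 1 group and was tested, as were 28985 genes or transcripts in all. The 5 others, namely C9, Masp1, Mbl2, Fcnb and Vsig4, were not well above background in both mice of any group and have no fold change here. For a gene with more than 1 probe, the values are those of its brightest probe.

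Whole lung RNA was measured in 8 female BALB/c mice, 2 per group, on 1 single-color array per mouse. The mice were purchased at 4 weeks of age, housed for 2 weeks and then fed for 70 days. The group NT received standard feed and no OVA. The groups Ctrl-F (standard feed), Cap-F (feed with Cap, carbonate apatite particles made without oligodeoxynucleotide) and ODNcap-F (feed with the same kind of particle holding a CpG-oligodeoxynucleotide) were sensitized by intraperitoneal OVA on aluminum oxide gel and then inhaled OVA aerosol. Their lungs were taken 24 h after the last inhalation. NT therefore differed from Ctrl-F in OVA, its adjuvant and the inhalations together, and no group was given the customized feeds without OVA. Values are quantile normalized log2 intensities, so that a difference of 1 is a 2-fold change. A gene was called at a limma Benjamini-Hochberg adjusted p under 0.05 over all probes, with the 8 mice in 1 fit, and the error of a difference is its SE (n = 2 mice per group).

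Between 61.3% and 65.0% of the probes on an array were well above background, and no spot was saturated. The lung epithelium markers Sftpc, Sftpb, Ager, Scgb1a1 and Foxj1 averaged between 15.25 and 15.70 on every array, as lung tissue should. Their mean was 15.69 to 15.70 in the NT mice and 15.25 to 15.51 in the mice given OVA. In each OVA group 2 of the 5 markers were called lower than in NT and 0 higher. The arrays of NT and Ctrl-F lay in row 1 of the slide and those of Cap-F and ODNcap-F in row 2. Slide row and group therefore cannot be told apart except where 2 groups shared a row (Ctrl-F with NT, and ODNcap-F with Cap-F). Groups that shared a row differed in column, with NT and Cap-F in columns 1 and 2, and Ctrl-F and ODNcap-F in columns 3 and 4. No comparison was thus free of slide position. The number of arrays limits the precision, and exact permutation of 1 gene's values in 2 against 2 mice gives no two-sided p below 0.333. Over all genes tested, the median log2 difference from NT was -0.12 (Ctrl-F), -0.11 (Cap-F) and -0.12 (ODNcap-F), and changes are to be read relative to that shift.

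Complement is a cascade of plasma and tissue proteins. The classical pathway starts when C1q binds antibody or damaged cells, the lectin pathway when collectins or ficolins bind sugars, and the alternative pathway amplifies C3 cleavage on surfaces. All pathways meet at C3, whose fragments mark particles for uptake and call in cells through C3a receptors, and end at the membrane attack complex. Regulators on cells and in plasma keep host tissue from attack. The liver makes most plasma complement, while C1q and properdin come mainly from myeloid cells, and lung epithelium can make C3. In allergic airways the fragments C3a and C5a are known for acting on inflammatory and structural cells.

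Against NT, 14 of the 32 tested members rose in all 3 OVA groups, where 21.2% of all genes did. The sizes differed widely among these members. The regulator Cfi rose most, by 30.1, 25.5 and 26.8-fold in the Ctrl-F, Cap-F and ODNcap-F mice, followed by the receptor C3ar1 and the 3 chains of C1q. By their brightest probe, the 5 members Vtn, Serping1, Colec12, C2 and Itgam fell in all 3 groups, where 27.8% of all genes did. The direction for Itgam depended on the probe. The members were not tested as a set against these shares. No member passed the test between any 2 OVA groups, where almost no gene did. The share of all genes called was 0% (ODNcap-F against Ctrl-F), 0.00345% (ODNcap-F against Cap-F) and 0.00345% (Cap-F against Ctrl-F). In whole lung RNA a change in the number of cells that express a gene and a change in the RNA per cell cannot be told apart.

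In Ctrl-F against NT, 21 of the 32 tested members were called (65.6%), and 61.9% of all genes were. Of these members 15 were higher, against 26.2% of all genes, and 6 were lower, against 35.7% of all genes. Cap-F against NT gave 23 called members, with 56.6% called among all genes, and 16 of them were higher and 7 lower (24.1% and 32.4% of all genes). ODNcap-F against NT gave 20, with 60% called among all genes, and 15 were higher and 5 lower (25.1% and 34.9% of all genes). The share of members called in Cap-F was 71.9% and in ODNcap-F 62.5%, so that it lay near the share of all genes in Ctrl-F and ODNcap-F and above it in Cap-F. The members had a median log2 difference from NT of 0.25 (Ctrl-F), 0.39 (Cap-F) and 0.26 (ODNcap-F). Neither difference from all genes was tested. Called changes of more than 2-fold were made by 10 members in Ctrl-F (22.8% of all genes), by 12 in Cap-F (19.6%) and by 10 in ODNcap-F (20.7%). The 2 NT mice did not overlap with the 2 mice of the compared group for 84% (Ctrl-F), 82.1% (Cap-F) and 82.3% (ODNcap-F) of all genes, and for 24, 29 and 26 of the 32 members, so that groups set apart are common here. The 3 comparisons share the NT mice and are not independent of each other.

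**Figure D1:**
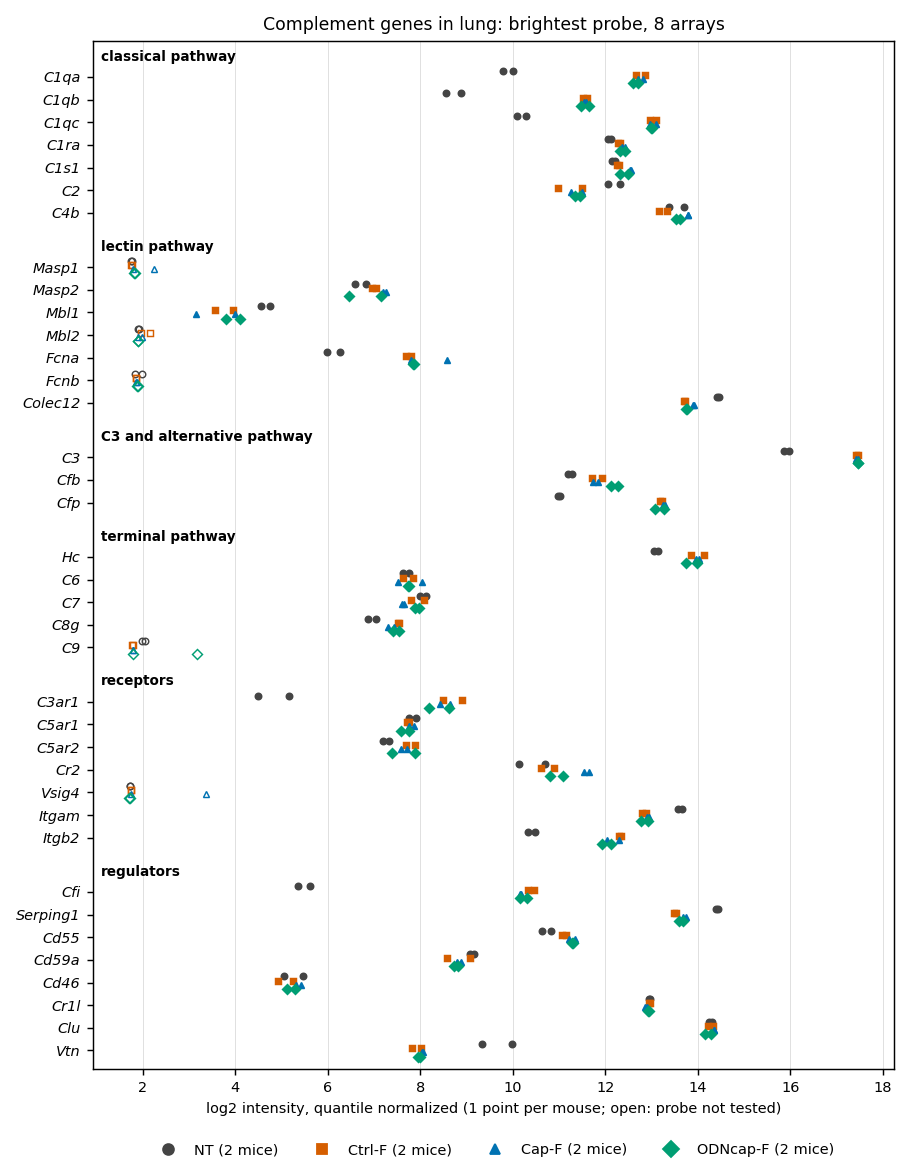
Log2 intensity of the brightest probe of each of the 37 complement genes (x axis) by role, with 1 point per mouse and 2 mice per group. Open points are the 5 genes that were not tested. The NT points of Cfi lie at 5.36 and 5.61 and those of the 6 OVA mice between 10.15 and 10.46, while the points of Clu lie together between 14.16 and 14.35.

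**Figure D2:**
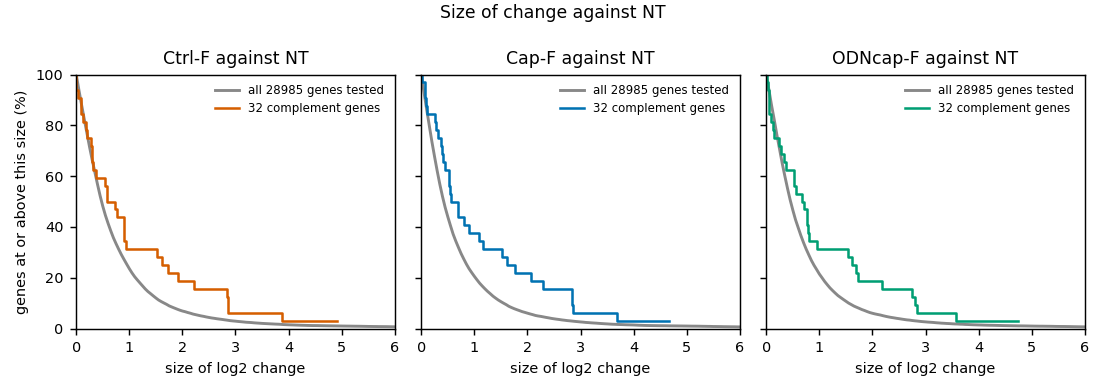
Percent of genes (y axis) whose log2 change against NT was at least the size on the x axis, in either direction, for all 28985 genes tested (grey) and the 32 complement genes (color), with 1 panel per OVA group. At a change of 1 on the x axis, called or not, the colored line lies above the grey one in each panel, and the median size was 0.65, 0.62 and 0.70 for the complement genes.

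In the classical pathway the genes of C1q itself changed most. C1qa, C1qb and C1qc, which encode the 3 chains of the recognition molecule C1q, each rose about 7-fold in all 3 OVA groups. Log2 intensity of C1qa was 10.001 and 9.79 in NT, against 12.67 and 12.85 in Ctrl-F, 12.71 and 12.81 in Cap-F and 12.70 and 12.60 in ODNcap-F. That of C1qb was 8.88 and 8.55 in NT, against 11.52 and 11.60 in Ctrl-F, 11.57 and 11.53 in Cap-F and 11.65 and 11.47 in ODNcap-F. C1qc measured 10.29 and 10.09 in NT, against 12.97 and 13.10 in Ctrl-F, 12.96 and 13.09 in Cap-F and 12.99 and 13.00 in ODNcap-F. For each chain, every OVA mouse lay far above both NT mice, and the 6 OVA mice lay close together. The difference from NT was 2.86, 2.86 and 2.75 for C1qa in the 3 OVA groups (SE 0.108), 2.84, 2.84 and 2.85 for C1qb (SE 0.126) and 2.85, 2.84 and 2.81 for C1qc (SE 0.0984), with no adjusted p above 3.53e-05. Of all genes tested, 3.24% changed at least as much as C1qa in Ctrl-F.

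The 3 C1q genes are direct neighbours on chromosome 4, in the order C1qb, C1qc and C1qa. Because they moved together, the stretch of 250 bases before the start is shown for C1qb and C1qc, from the RefSeq promoter table on GRCm38.p6. C1qb lies at chr4:136886201-136886450 and C1qc at chr4:136892915-136893164, both on the minus strand and written in the direction of the gene. Capitals mark a match to the PU.1 motif GAGGAAGT, searched on both strands.
C1qb: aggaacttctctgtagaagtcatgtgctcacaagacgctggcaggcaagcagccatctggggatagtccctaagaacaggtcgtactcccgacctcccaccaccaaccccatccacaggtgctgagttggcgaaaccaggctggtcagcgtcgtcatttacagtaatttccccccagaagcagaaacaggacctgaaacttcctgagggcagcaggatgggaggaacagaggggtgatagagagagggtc
C1qc: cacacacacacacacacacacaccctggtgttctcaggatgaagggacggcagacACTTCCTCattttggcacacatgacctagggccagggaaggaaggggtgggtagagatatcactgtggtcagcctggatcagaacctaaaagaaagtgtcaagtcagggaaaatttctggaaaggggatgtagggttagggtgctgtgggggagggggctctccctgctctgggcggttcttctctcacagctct
PU.1 is a transcription factor of myeloid cells. The match in C1qc ends 188 bases before the start and reads on the opposite strand, no match was in the C1qb window, and 2.44% of 32851 promoters held this motif.

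The proteases that C1q activates changed little beside C1q itself. C1ra, which encodes the protease C1r, was 12.12 and 12.05 in NT, against 12.27 and 12.31 in Ctrl-F, 12.44 and 12.37 in Cap-F and 12.42 and 12.32 in ODNcap-F. Its difference from NT was 0.20, 0.32 and 0.28 in the 3 groups (SE 0.0721), and it was called in each (adjusted p = 0.0489, 0.0112 and 0.0165). The call in Ctrl-F was lost without any 1 of the 8 mice (adjusted p from 0.0520 to 0.191), in Cap-F without NT mouse 2 or Cap-F mouse 1 (0.0625 to 0.0638), and in ODNcap-F without NT mouse 2 or ODNcap-F mouse 1 (0.0711 to 0.0842). C1s1, for the protease C1s, was 12.14 and 12.20 in NT, against 12.29 and 12.24 in Ctrl-F, 12.54 and 12.55 in Cap-F and 12.50 and 12.32 in ODNcap-F. It rose by 0.37 in Cap-F (adjusted p = 0.00994, or 0.0542 without NT mouse 1) and by 0.23 in ODNcap-F (adjusted p = 0.0489), a call that only leaving out ODNcap-F mouse 2 did not end (0.0736 to 0.189 without 1 of the others). The difference of 0.09 in Ctrl-F did not pass. Each has a near-identical copy nearby, C1rb and C1s2, whose probes may share transcripts with these.

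C2 and C4b encode both parts of the classical C3 convertase. C2 fell, with log2 intensities of 12.32 and 12.06 in NT, against 11.50 and 10.98 in Ctrl-F, 11.50 and 11.26 in Cap-F and 11.44 and 11.34 in ODNcap-F. Its ratio to NT was 0.519, 0.571 and 0.576 in the 3 OVA groups (SE 0.194 on the log2 scale, adjusted p = 0.00707, 0.0143 and 0.0142), and both NT mice lay above all 6 OVA mice. Without NT mouse 1 the call was lost in Cap-F and ODNcap-F, as it was without Cap-F mouse 2 and without ODNcap-F mouse 2, with adjusted p between 0.0646 and 0.0765. C4b was 13.69 and 13.37 in NT, against 13.34 and 13.16 in Ctrl-F, 13.78 and 13.79 in Cap-F and 13.61 and 13.53 in ODNcap-F. It passed against NT in no group, with differences of -0.28, 0.25 and 0.04 (SE 0.125). In Ctrl-F it was called lower with normexp background correction (adjusted p = 0.0485) and with an intensity trend (adjusted p = 0.0410). Its copy C4a has probes that may share transcripts with it.

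In the lectin pathway only part of the genes could be measured. Masp1, a protease, Mbl2, a mannose-binding lectin, and Fcnb, a ficolin, were below the level of detection. Fcna, which encodes ficolin A, a sugar-binding lectin of macrophages, rose 3.08, 4.19 and 3.33-fold. Log2 intensity of Fcna was 6.27 and 5.98 in NT, against 7.80 and 7.69 in Ctrl-F, 7.80 and 8.58 in Cap-F and 7.87 and 7.85 in ODNcap-F. Every OVA mouse lay above both NT mice, and Cap-F mouse 2 lay above all the others. The difference was 1.62, 2.07 and 1.74 (SE 0.249, adjusted p = 0.00223, 9.92e-04 and 0.00181). With normexp background correction the fold in Cap-F was 2.59 and in ODNcap-F 2.18.

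Mbl1, for the other mannose-binding lectin, was well above background in the NT mice alone, at 4.56 and 4.76. Its NT level exceeded that of Ctrl-F at least 1.56-fold (adjusted p = 0.0379) and that of Cap-F at least 1.52-fold (adjusted p = 0.0216). The bound against ODNcap-F was 1.45-fold (adjusted p = 0.0802, not called). Mbl1 entered the test only through NT, where it was high, and could therefore only be lower elsewhere, and its calls in Ctrl-F and Cap-F were lost when no filter was applied. With normexp background correction NT was 1.23-fold above Ctrl-F and 1.28-fold above Cap-F, less than these bounds, which hold for the quantile normalized values. A bound sets the NT mean against the lowest signal well above background on each array of the other group. The call in Ctrl-F was lost without any 1 of the NT, Ctrl-F and ODNcap-F mice (0.0540 to 0.163), and that in Cap-F without either NT mouse or Cap-F mouse 2 (0.0561 to 0.0977). Colec12, a scavenger receptor of the collectin family, fell from 14.42 and 14.45 in NT to between 13.71 and 13.92 in the OVA mice. Its ratio to NT was 0.605, 0.694 and 0.625 (adjusted p = 2.30e-04, 8.51e-04 and 3.25e-04). The brightest of 3 probes of Masp2, the protease that cleaves C4 and C2, was 6.83 and 6.59 in NT, against 7.05 and 6.96 in Ctrl-F, 7.19 and 7.27 in Cap-F and 6.46 and 7.15 in ODNcap-F, and it passed in no group. A dimmer Masp2 probe, near 4.8 in NT, was called higher in all 3 groups by 0.31, 0.63 and 0.45 (adjusted p = 0.0187, 0.00133 and 0.0049), and the dimmest was not called.

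All 3 genes of C3 and the alternative pathway rose in each OVA group. C3, the central component, was the brightest member, with log2 intensities of 15.97 and 15.87 in NT, against 17.42 and 17.46 in Ctrl-F, 17.46 and 17.42 in Cap-F and 17.46 and 17.46 in ODNcap-F. It stood at rank 202 and 235 of 56605 probes in the NT mice and at rank 7 or 8 in the OVA mice. Quantile normalization gives equal values to equal ranks, so the small spread of C3 among the OVA mice is partly set by that step. The ratio to NT was 2.87, 2.87 and 2.92 (adjusted p = 3.18e-05, 3.71e-05 and 3.35e-05). Scaling by the 75th percentile, which does not tie values to ranks, gave 3.29, 3.28 and 3.50. A second C3 probe read 14.70 and 14.38 in NT and between 16.39 and 16.64 in the OVA mice, a difference of 1.98, 2.06 and 2.05.

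Cfp encodes properdin, which stabilizes the alternative C3 convertase. Log2 intensity of Cfp was 10.97 and 11.01 in NT, against 13.19 and 13.22 in Ctrl-F, 13.30 and 13.25 in Cap-F and 13.26 and 13.07 in ODNcap-F. The ratio to NT was 4.64, 4.87 and 4.51 (SE 0.0832 on the log2 scale, adjusted p = 1.79e-05, 1.84e-05 and 2.02e-05), and a second probe gave differences of 2.53, 2.42 and 2.32. Cfb, for factor B, the protease of the same convertase, was 11.28 and 11.19 in NT, against 11.92 and 11.70 in Ctrl-F, 11.74 and 11.84 in Cap-F and 12.13 and 12.26 in ODNcap-F. Both NT mice lay below all OVA mice, and both ODNcap-F mice lay above the other 4 OVA mice. The ratio of Cfb to NT was 1.49, 1.47 and 1.95 (adjusted p = 0.00409, 0.00518 and 5.93e-04), and a dimmer probe was called in Ctrl-F and ODNcap-F but not in Cap-F (adjusted p = 0.0148, 0.00154 and 0.0546). Cfb and C2 are close relatives that lie near each other on chromosome 17, and they moved in opposite directions.

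For C3 the window of 250 bases before the start is at chr17:57228137-57228386 on the minus strand, shown because C3 and its receptor gene C3ar1 both rose. Capitals in C3 mark the C/EBP motif TTGCNNAA, which ends 38 bases before the start and is present in 9.56% of promoters. The window of C3ar1 lies at chr6:122856158-122856407, also on the minus strand, and its capitals mark TATAAA, 230 bases before the start and so outside the usual place of a TATA box, found in 12.4% of promoters.
C3: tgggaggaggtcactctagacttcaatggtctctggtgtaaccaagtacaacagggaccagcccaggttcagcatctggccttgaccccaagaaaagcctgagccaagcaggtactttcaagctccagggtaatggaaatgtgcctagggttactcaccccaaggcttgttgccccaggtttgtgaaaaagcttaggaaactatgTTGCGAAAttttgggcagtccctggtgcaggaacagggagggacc
C3ar1: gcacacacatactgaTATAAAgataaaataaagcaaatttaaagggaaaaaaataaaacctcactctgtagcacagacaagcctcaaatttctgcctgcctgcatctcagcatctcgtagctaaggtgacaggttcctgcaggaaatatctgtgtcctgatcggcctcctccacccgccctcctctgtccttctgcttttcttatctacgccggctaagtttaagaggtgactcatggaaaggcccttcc
The PU.1 motif GAGGAAGT, the STAT motif TTCNNNGAA, the STAT6 motif (TTC and GAA with 4 free bases between) and the interferon-stimulated response element (GAAA, 2 free bases and GAAA) had no match in these windows. C/EBP factors take part in acute-phase transcription, and STAT6 acts downstream of interleukin-4 and interleukin-13. Of 27 members with a promoter in the table, 1 held the STAT6 motif (5.85% of all promoters), 2 the STAT motif (7.02%) and 1 the interferon-stimulated response element (2.98%). The C/EBP motif was in 5 members, namely C1s1, Fcnb, C3, C9 and C5ar2. A match is a run of letters and not a measured binding site.

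Among the terminal components, Hc and C8g rose, C6 did not pass and C9 was not detected. Hc, which encodes C5, was 13.14 and 13.06 in NT, against 13.85 and 14.14 in Ctrl-F, 14.03 and 13.97 in Cap-F and 13.98 and 13.75 in ODNcap-F. Its ratio to NT was 1.86, 1.86 and 1.70 (SE 0.126 on the log2 scale, adjusted p = 0.00156, 0.00176 and 0.00311), and every OVA mouse lay above both NT mice. C8g encodes a chain of C8 and belongs to the lipocalins. It measured 6.86 and 7.05 in NT, against 7.52 and 7.54 in Ctrl-F, 7.29 and 7.44 in Cap-F and 7.41 and 7.53 in ODNcap-F, a ratio of 1.49, 1.33 and 1.44 to NT (adjusted p = 0.00314, 0.0131 and 0.00500), and the call in Cap-F was lost without NT mouse 1 or Cap-F mouse 2 (0.0675 to 0.0690). C7, a subunit of the membrane attack complex, was 8.13 and 8.003 in NT, against 8.09 and 7.80 in Ctrl-F, 7.61 and 7.64 in Cap-F and 7.89 and 7.97 in ODNcap-F. It fell by 0.44 in Cap-F (adjusted p = 0.0170), a call lost without NT mouse 1 or either Cap-F mouse (0.0575 to 0.0867), and its differences of -0.12 and -0.13 in Ctrl-F and ODNcap-F did not pass. C6, another subunit, ranged from 7.51 to 8.03 over the 8 mice.

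Of the receptors, C3ar1 changed most. It encodes the receptor for the anaphylatoxin C3a, found on myeloid cells, and its log2 intensity was 5.17 and 4.50 in NT, against 8.49 and 8.91 in Ctrl-F, 8.64 and 8.43 in Cap-F and 8.61 and 8.19 in ODNcap-F. All OVA mice lay far above both NT mice, which differed from each other more than the mice of any OVA group did. The ratio to NT was 14.6, 13.0 and 11.8 in the 3 OVA groups (SE 0.273 on the log2 scale, adjusted p = 1.28e-04, 1.77e-04 and 1.93e-04). The NT level was close to background, and with normexp background correction the ratios were 5.49, 4.69 and 4.34. The receptors of C5a stood apart from it. C5ar1, the main C5a receptor, lay between 7.59 and 7.90 in all 8 mice and passed in no group, with an interval of -0.32 to 0.15 for the log2 difference in Ctrl-F. C5ar2, the second C5a receptor, was 7.20 and 7.31 in NT, against 7.89 and 7.70 in Ctrl-F, 7.59 and 7.71 in Cap-F and 7.88 and 7.38 in ODNcap-F. It was called in Ctrl-F at a ratio of 1.45 (adjusted p = 0.0363), lost without any 1 of the NT, Ctrl-F and Cap-F mice (0.0548 to 0.153), and its ratios of 1.32 and 1.29 in Cap-F and ODNcap-F did not pass. C5ar1 and C5ar2 lie near each other on chromosome 7.

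The receptors of C3 fragments on leukocytes share a beta chain. Itgb2, that chain (CD18), was 10.49 and 10.32 in NT, against 12.30 and 12.35 in Ctrl-F, 12.29 and 12.04 in Cap-F and 12.12 and 11.92 in ODNcap-F, a ratio to NT of 3.78, 3.39 and 3.06 (SE 0.122 on the log2 scale, adjusted p = 9.05e-05, 1.41e-04 and 1.82e-04). Itgam, the alpha chain CD11b of complement receptor 3, was 13.57 and 13.65 in NT, against 12.88 and 12.80 in Ctrl-F, 12.89 and 12.95 in Cap-F and 12.93 and 12.78 in ODNcap-F by its brightest probe. This probe fell to 0.585, 0.620 and 0.591 of NT (adjusted p = 5.07e-04, 9.08e-04 and 5.98e-04), with both NT mice above all OVA mice. A dimmer probe, made for another transcript of Itgam, was 4.51 and 3.94 in NT and 5.43 and 5.06 in Ctrl-F, and it was called higher in Ctrl-F and Cap-F by 1.02 and 0.85 (adjusted p = 0.0153 and 0.0321). The direction for Itgam thus depends on the probe. In NT the dimmer probe lay near the lowest signal well above background on those arrays (3.64 and 3.61), and the brightest lay far above it. Itgax, the alpha chain CD11c of complement receptor 4, is no member but pairs with the same beta chain and lies near Itgam on chromosome 7. It was 11.42 and 11.30 in NT, against 14.68 and 14.78 in Ctrl-F, 14.77 and 14.55 in Cap-F and 14.55 and 14.16 in ODNcap-F, 10.4, 9.83 and 7.98-fold higher than NT (adjusted p = 3.07e-05, 3.83e-05 and 4.95e-05), and its second probe moved likewise by 3.76, 3.55 and 3.37.

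Cr2 encodes complement receptor 2 (CD21) of B cells and follicular dendritic cells. Log2 intensity of Cr2 was 10.70 and 10.13 in NT, against 10.88 and 10.60 in Ctrl-F, 11.54 and 11.64 in Cap-F and 11.08 and 10.81 in ODNcap-F. Both Cap-F mice lay above all 6 other mice, while the Ctrl-F mice overlapped with NT. Cr2 was called in Cap-F against NT at a ratio of 2.25 (SE 0.211 on the log2 scale, adjusted p = 0.00472), and its ratios of 1.25 (Ctrl-F) and 1.44 (ODNcap-F) did not pass (adjusted p = 0.227 and 0.0756). The other probes of Cr2 were called in Cap-F and in ODNcap-F (adjusted p = 0.0309 and 0.0361 in ODNcap-F) and not in Ctrl-F. The B cell markers, Cd79a, Cd79b and Ms4a1 among them, rose in all 3 groups, 6 of 6 in each, from a mean log2 level between 8.53 and 8.998 in the NT mice to between 10.70 and 11.15 in the OVA mice, and their part in the level of Cr2 was not tested. Vsig4, a macrophage receptor for C3 fragments, was not detected.

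C1q, C3ar1, Itgb2, Fcna and Cfp, which rose, are genes that myeloid cells express. Not all members of such cells rose: the brightest probe of Itgam fell, C5ar1 passed in no group and Vsig4 was not detected. Of the 8 macrophage markers, 5 rose and 2 fell in each OVA group, and the mean log2 level of the list was 10.29 to 10.35 in the NT mice and 11.51 to 11.73 in the OVA mice. Ms4a7 changed most, by 4.24 in Ctrl-F, while Lyz2 fell by 1.31 and Mertk fell by 0.42. The alveolar macrophage list gave 3 higher and 2 lower of 6 in Ctrl-F and Cap-F, and 4 higher and 2 lower in ODNcap-F. Its mean was 11.12 to 11.15 in the NT mice and 11.16 to 11.56 in the OVA mice. The neutrophil list gave 2 higher and 2 lower of 6 in Ctrl-F and ODNcap-F, and 2 higher and 1 lower in Cap-F. Its mean was 11.58 to 11.87 in the NT mice and 11.41 to 11.99 in the OVA mice. All 5 eosinophil markers were higher in each OVA group, and their mean rose from between 6.26 and 6.86 to between 9.58 and 9.97. Siglecf is in both the eosinophil and the alveolar macrophage list. The part of these cells in the complement changes was not tested.

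The regulators gave the largest rise and the largest fall of all members. Cfi encodes factor I, the protease that cuts C3b and C4b with the help of cofactors. Log2 intensity of Cfi was 5.61 and 5.36 in NT, against 10.46 and 10.34 in Ctrl-F, 10.15 and 10.18 in Cap-F and 10.30 and 10.15 in ODNcap-F. Each pair of mice lay close together, and every OVA mouse lay far above both NT mice. The difference was 4.91, 4.67 and 4.74 (SE 0.110, adjusted p = 4.96e-06, 6.84e-06 and 5.53e-06), and 1.02% of all genes changed at least as much in Ctrl-F. With normexp background correction, which raises dim signals, the ratios were 12.6, 10.1 and 11.2. Plasma factor I comes mainly from the liver. Of 8 hepatocyte markers 4 were tested, of which 2 were higher and 2 lower in Ctrl-F, and the mean of these 4 was 8.37 to 8.40 in the NT mice and 8.06 to 8.40 in the OVA mice. The markers Apoa1, Ttr, Fgb and Apoh were not well above background in both mice of any group. Alb lay between 2.75 and 5.38 and was lower in the OVA mice. Its lowest value was under the lowest signal well above background on any array (3.61 to 4.18), so the size of its fall is uncertain. Ahsg rose from 6.13 and 6.15 in NT to between 7.46 and 8.24.

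Vtn encodes vitronectin, which blocks membrane insertion of the attack complex and also binds integrins. Its log2 intensity was 9.34 and 9.99 in NT, against 7.83 and 8.02 in Ctrl-F, 8.06 and 8.03 in Cap-F and 7.998 and 7.95 in ODNcap-F. Both NT mice were higher than all OVA mice, and the NT mice differed more from each other than the OVA mice did. The ratio to NT was 0.300, 0.326 and 0.310 (SE 0.206 on the log2 scale, adjusted p = 8.08e-04, 0.00122 and 9.72e-04). Serping1, for the C1 inhibitor, was 14.40 and 14.43 in NT, against 13.49 and 13.53 in Ctrl-F, 13.68 and 13.75 in Cap-F and 13.68 and 13.59 in ODNcap-F. It fell to 0.533, 0.615 and 0.581 of NT (SE 0.0690 on the log2 scale, adjusted p = 1.63e-04, 4.74e-04 and 3.03e-04). The lists of lung endothelium and mesothelial cell markers were lower too, with 4 of 4 and 2 of 4 lower in Ctrl-F, and their mean log2 levels fell from between 12.97 and 13.05 to between 11.56 and 11.86 and from between 9.93 and 10.05 to between 8.12 and 8.90. Of the 6 fibroblast markers, 2 rose and 3 fell in Ctrl-F, 3 rose and 2 fell in Cap-F, and 2 rose and 1 fell in ODNcap-F. Their mean was 12.30 to 12.36 in the NT mice and 11.56 to 12.27 in the OVA mice. The part of these cells in the falls of Vtn and Serping1 was not tested.

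Regulators on the cell surface changed little. Cd55, decay-accelerating factor, rose from 10.63 and 10.83 in NT to between 11.06 and 11.34 in the OVA mice. The ratio was 1.29, 1.46 and 1.48 (adjusted p = 0.0161, 0.00412 and 0.00332). A second probe of Cd55 was not called in Ctrl-F, with a log2 difference of 0.15 (adjusted p = 0.117), and the call of the brightest in Ctrl-F was lost without NT mouse 1 or Ctrl-F mouse 1 (0.0783 to 0.0793). Its relative Cd55b, which lies near it and may share transcripts with its probes, rose in each group too, by 0.42, 0.58 and 0.65. Cd59a, which blocks the attack complex, Cd46, a cofactor of factor I, and Cr1l (Crry), the main membrane regulator of mouse cells, passed in no group. Cr1l was the steadiest of these, between 12.85 and 12.96 in all 8 mice, with an interval for its difference in Ctrl-F of -0.15 to 0.15. Clu, which encodes the soluble regulator clusterin, was 14.31 and 14.23 in NT, against 14.32 and 14.22 in Ctrl-F, 14.35 and 14.35 in Cap-F and 14.16 and 14.28 in ODNcap-F, and it passed in no group, with an interval of -0.19 to 0.19 in Ctrl-F. Under 75th percentile scaling Clu was called higher in Ctrl-F, by 0.29 (adjusted p = 0.0286).

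**Figure D3:**
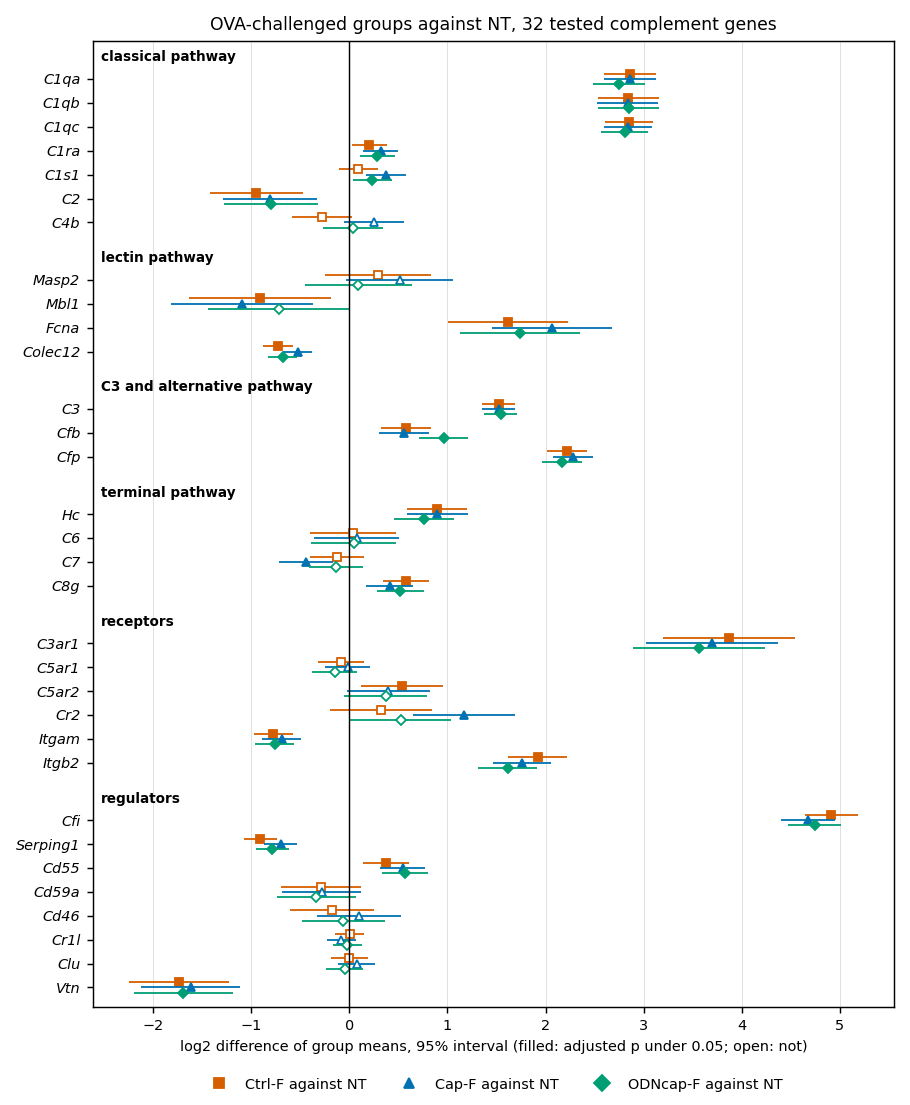
Log2 difference from NT (x axis) of the 32 tested complement genes for each OVA group, with the 95% interval of the limma fit (2 mice per group). Filled points passed an adjusted p under 0.05. Cfi lies between 4.67 and 4.91, the C1q genes between 2.75 and 2.86, and Vtn between -1.74 and -1.62, while Clu and Cr1l lie close to 0.

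Other genes of the system were counted from a list of 26, of which 22 were tested. In Ctrl-F 7 rose and 7 fell, and in both Cap-F and ODNcap-F 7 rose and 6 fell. The share called was 63.6% (Ctrl-F), 59.1% (Cap-F) and 59.1% (ODNcap-F), near the 61.9%, 56.6% and 60% of all genes. C4bp, a cofactor of factor I, was not well above background in NT and was at 7.76 and 7.75 in Ctrl-F, 7.39 and 7.03 in Cap-F and 7.47 and 7.59 in ODNcap-F. C4bp entered the test only through the OVA groups. It was at least 17.5-fold, 12.0-fold and 15.0-fold higher than in NT (adjusted p = 6.34e-06, 9.68e-06 and 7.58e-06). Csmd1, a membrane protein with complement control domains, was also below detection in NT and entered the test only through the OVA groups. It was higher by at least 2.77-fold, 3.20-fold and 2.25-fold (adjusted p = 3.92e-05, 3.52e-05 and 6.82e-05). C4bp and Csmd1 could therefore only come out higher than in NT. As for Mbl1, their bounds hold for the quantile normalized values and not for other background corrections. C1qbp and Calr, which bind C1q, were 1.54-fold and 1.56-fold higher in Ctrl-F. Cd93 and Thbd, surface proteins of endothelium, fell to 0.377 and 0.304 of NT in Ctrl-F, and Susd4, Lrp1 and Cd59b also fell in each group. Cfd, which encodes the protease factor D (adipsin), was called lower in Ctrl-F against NT (adjusted p = 0.0343), and its mice ranged from 5.17 to 11.14. The level of Cfd was above Ctrl-F by 3.88 ± 1.33 in ODNcap-F and by 2.25 in Cap-F on the log2 scale. Neither difference passed (adjusted p = 0.740 and 0.445). By size, the difference of ODNcap-F from Ctrl-F ranked 5 among the 28985 genes tested.

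Between the OVA groups, the question was whether the feeds differed in these genes. In limma no member passed for ODNcap-F against Ctrl-F (0% of all genes called), ODNcap-F against Cap-F (0.00345%) or Cap-F against Ctrl-F (0.00345%). At an unadjusted p under 0.05, 3, 4 and 6 of the 32 members differed, where 6.78%, 13.4% and 16.6% of all genes did. The local-pooled-error test, which borrows the variance of probes of like intensity, called 0, 1 and 2 members, where it called 0.831%, 0.849% and 1.48% of all genes. Members differed by at most 0.85 on the log2 scale, and the 95% interval of a member reached a median of 0.27 to either side. Smaller differences could thus not be resolved in most members. Larger ones could fail the test too, because the interval is not adjusted over all probes. For Cap-F against Ctrl-F, Cr2 at 0.85 and C4b at 0.53 did not pass. The mice of the compared groups did not overlap for 12, 13 and 19 members, where 35.6%, 45.7% and 51.7% of all genes did not.

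Cfb was the member with the smallest adjusted p in both comparisons of ODNcap-F. Its ODNcap-F level was above that of Ctrl-F by 0.39 ± 0.103 (adjusted p = 0.699) and above that of Cap-F by 0.40 ± 0.103 (adjusted p = 0.258), and its dimmer probe gave 0.40 and 0.55. Both ODNcap-F mice were the highest of the 8, and the difference did not pass. The Cap-F level of Cr2 was above that of Ctrl-F by 0.85 ± 0.211 (adjusted p = 0.182) and ODNcap-F differed from Cap-F by -0.65 ± 0.211 (adjusted p = 0.324). The call of Cr2 against NT in Cap-F alone is therefore not shown to differ between the groups by limma, whereas the local-pooled-error test called Cr2 in both of these comparisons. C4b in Cap-F was above C4b in Ctrl-F by 0.53 ± 0.125 (adjusted p = 0.173), with 0.46 for its second probe and 0.39 for C4a, and the local-pooled-error test called it.

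For the members with the largest rise against NT, no difference between the feeds was detected with these arrays. The 95% interval for ODNcap-F against Ctrl-F was -0.44 to 0.10 for Cfi, -0.37 to 0.16 for C1qa, -0.15 to 0.19 for C3 and -0.25 to 0.16 for Cfp on the log2 scale. For C3ar1 it was wider, -0.97 to 0.37. Itgb2 in ODNcap-F lay 0.31 below its Ctrl-F level, with an interval of -0.60 to -0.01 and an adjusted p of 0.740. Of the members with an unadjusted p under 0.05, Colec12 and C7 differed in both comparisons of Cap-F, and C1s1 and Serping1 between Cap-F and Ctrl-F, by 0.15 to 0.32 in size.

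**Figure D4:**
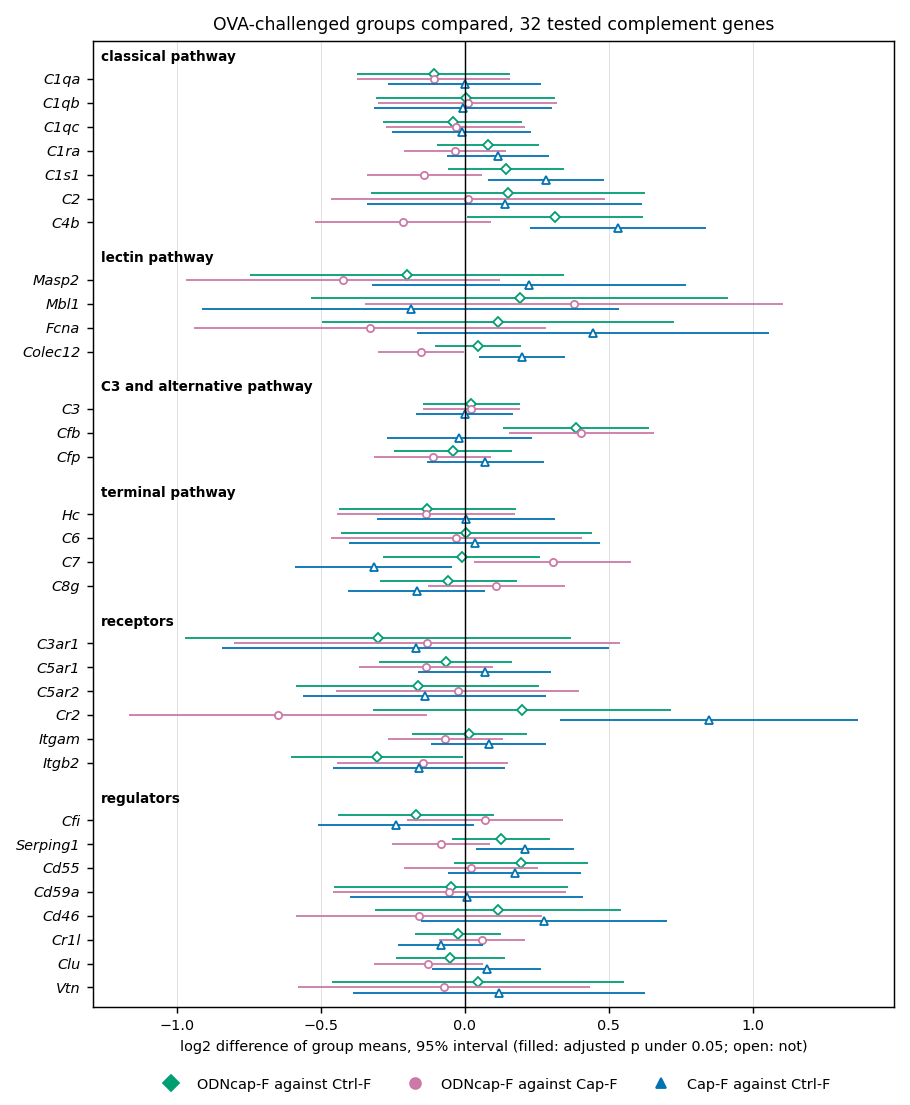
Log2 difference (x axis) of the 32 tested complement genes in the 3 comparisons among the OVA groups, with the 95% interval of the limma fit (2 mice per group). All points are open because no adjusted p was under 0.05. The point of Cr2 reaches 0.85 for Cap-F over Ctrl-F and -0.65 for ODNcap-F over Cap-F, while Cfb lies at 0.39 and 0.40 in the comparisons of ODNcap-F.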

How the data were processed

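The authors deposited, for each of 8 arrays, the background-subtracted, detrended spot intensity written by Agilent Feature Extraction 11.0, not normalized between arrays, and 1 table of quantile normalized log2 values for 32312 probes. Without control spots and outlier-flagged spots, log2 intensities were averaged per probe (56605 probes) and brought to 1 distribution by quantile normalization. A probe entered the test (37116 did) if any group had it well above background in both mice. The test was 1 limma fit (limma 3.58.1, R 4.3.3) of 4 groups without covariates, with 4 residual degrees of freedom, 1.96 added by moderation and Benjamini-Hochberg adjustment over all probes. Names came from a RefSeq table through accessions (32994 probes named), and probe sequences were not used. The replicates were separate mice. The local-pooled-error test of the methods was rebuilt (100 intensity bins, a spline of 10 degrees of freedom) as an alternative, because limma uses the spread between mice of each gene. Other alternatives were 75th percentile scaling, normexp with an offset of 50, the deposited table, other filters, a block for the replicate number, a trend of variance with intensity, fits of 2 groups, each mouse left out, the mean of a gene's probes, an unadjusted p and a 2-fold threshold. The named genes were all members and the other complement genes that passed or resemble a member, and a member's other probes are given where their call differs. Members, lists and tests were chosen with earlier results of these data known. The promoter table held 27 members and was searched over 250 bases. Some genes of the lists are not reported here.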

Additional observations from a re-analysis of the deposited data

How the results depend on the processing

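Of the 64 calls of members against NT, 64 were kept with 75th percentile scaling, normexp correction or an intensity trend, 62 with the deposited table or with a filter that asks for all arrays (Mbl1 was not in these fits), 60 without a filter, 60 in fits of only the groups compared, 61 with the mean of a gene's probes, 57 in the local-pooled-error test and 58 in that test on the deposited table. Calls against NT were also gained, 2 with 75th percentile scaling (Clu in Ctrl-F and Mbl1 in ODNcap-F), 5 with normexp correction, 2 with an intensity trend, 5 in fits of only the groups compared and 2 in the local-pooled-error test. With the mean of its probes, Itgam turned from lower to higher, at 0.12 (Ctrl-F) and 0.0784 (Cap-F) on the log2 scale. With a change of more than 2-fold also required, 10 (Ctrl-F), 12 (Cap-F) and 10 (ODNcap-F) members were called against NT. Among the OVA groups, where limma called 0, an unadjusted p gave 3 members for ODNcap-F against Ctrl-F, 4 for ODNcap-F against Cap-F and 6 for Cap-F against Ctrl-F. The local-pooled-error test gave 1 (Cr2) for ODNcap-F against Cap-F and 2 (C4b and Cr2) for Cap-F against Ctrl-F, with the same counts of 1 and 2 on the deposited table. Leaving out 1 mouse gave 17 to 19 called members in Ctrl-F against NT, 19 to 25 in Cap-F, 18 to 20 in ODNcap-F and 0 to 0 among the OVA groups. The lone mouse of a group was then assumed to vary like the other groups. The replicate block gave 19, 23 and 20 called members against NT and 0 among the OVA groups, and it kept 61 of the 64 calls. Same-numbered mice deviated together little (correlations from -0.01 to 0.16, highest for Cap-F with ODNcap-F), and the numbers were not treated as pairs. With 2 mice per group, such correlations cannot show that the numbers pair nothing. Signal over background limits Cfi and C3ar1 in NT and Mbl1 in the OVA mice.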
